A study of Mus musculus with 16 samples.

Results

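The effect of SR9009, a synthetic compound that activates the clock receptors REV-ERBα and REV-ERBβ, was measured in mouse macrophages that had all received LPS. The comparison takes 8 of the 16 libraries of the series, chosen by their treatment labels: 4 libraries of cells given 10 µM SR9009 before 100 ng/mL LPS and 4 of cells labelled with LPS alone at the same dose. The 16 libraries come from bone marrow-derived macrophages of 4 male C57BL6 mice, wild type in genotype, and each mouse gave 1 library to each of 4 groups (DMSO, SR9009, LPS, SR9009 and LPS). SR9009 was given for 16 hours and LPS for the following 6 hours, and all cells were grown and treated in medium with supernatant of L929 cells, a source of the macrophage growth factor CSF1. The labels do not state whether the LPS group received DMSO overnight, so a difference in vehicle cannot be told apart from the SR9009 effect here, and they give no age for the mice. The series title is about how the clock controls fibrinolysis by innate immune cells, and the comparison asks what the agonist changed in cells that respond to LPS. No library of the group given SR9009 without LPS enters its main fit. Those libraries enter the test near the end of the difference between the SR9009 effects with and without LPS. They also enter an alternative fit of all 16 libraries and the levels on a scale of all 16.

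Both REV-ERB proteins are nuclear receptors that bind a short DNA element shared with the ROR activators, recruit a corepressor and silence nearby genes, among them Arntl, which encodes the clock activator BMAL1. LPS is a bacterial cell wall component that signals through Toll-like receptor 4 (TLR4) to NF-κB, MAP kinases and, through interferon beta, to interferon-stimulated genes. Macrophages also shape fibrinolysis, since they make the urokinase receptor, plasminogen receptors and the serpin inhibitor PAI-2 (Serpinb2), which blocks the activators that turn plasminogen into plasmin.

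Total counts ran from 15819992 to 19723646 in the LPS libraries and from 18616960 to 19924361 with SR9009 and LPS (exact two-sided permutation test p = 0.114, 4 against 4, where the smallest possible p is 0.0286, and adjusted p = 0.321 over 5 library measures). That test took the libraries as unpaired, although each mouse gave 1 to each group. All 10 macrophage markers were above 1 CPM (counts relative to the scaled library size) in all 8 libraries, and their summed level was 9777 to 10784 CPM with LPS and 9368 to 9843 CPM with SR9009 and LPS. The order turned without TMM scaling (9330 to 10076 and 9929 to 10512 relative to raw totals), so no direction is read from it. The 10 neutrophil markers summed to 278 to 415 CPM with LPS and 77.4 to 136 CPM with SR9009 and LPS, carried by Csf3r, a growth factor receptor gene that macrophages also express, while the defining markers Ly6g, Elane, Mpo, Cxcr2 and Retnlg were at 0 in every library. The 8 dendritic cell markers summed to 705 to 955 and 358 to 596 CPM, carried by Bst2, which is also an interferon-stimulated gene, with Cd209a at 0 and each other marker at no more than 2.53 CPM. The other 8 marker lists summed to at most 166 CPM in any library. In bulk RNA, fewer cells of a type and less RNA per cell cannot be told apart.

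With mouse number in the model, 1159 genes were higher and 1478 lower with SR9009 and LPS than with LPS alone, of 12102 tested (9.58% and 12.2%, together 21.8%; edgeR quasi-likelihood test, Benjamini-Hochberg adjusted p under 0.05). A log2 difference of at least 1 was reached by 389 of the higher and 361 of the lower genes, and of at least 2 by 43 and 69. Of the 2637 called genes, 2629 had the same direction in 4 of 4 mice, and for 1362 the LPS and the SR9009 and LPS libraries did not overlap. Groups without overlap occurred for 1873 of all tested genes (15.5%), and 1 direction in 4 of 4 mice for 5553 of the 12102. A test within mouse selects genes with a shared direction, so that agreement among called genes is no separate support. Counts of list members below are read against these shares of all tested genes. A gene is said to have risen or fallen only where it passed this threshold, and each such gene moved that way in 4 of 4 mice except Abca1 and Il12b, which did so in 3. Without the mouse term the same libraries gave 215 higher and 271 lower genes, and upper-quartile scaling with the mouse term gave 1549 and 1087, 58.8% higher against 44.0% with the scaling used here, with the median of all genes moved by 0.08 on the log2 scale. Leaving out mouse 1, 2, 3 or 4 gave 685 and 699, 462 and 506, 564 and 733, and 796 and 974 higher and lower genes.

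**Figure D1:**
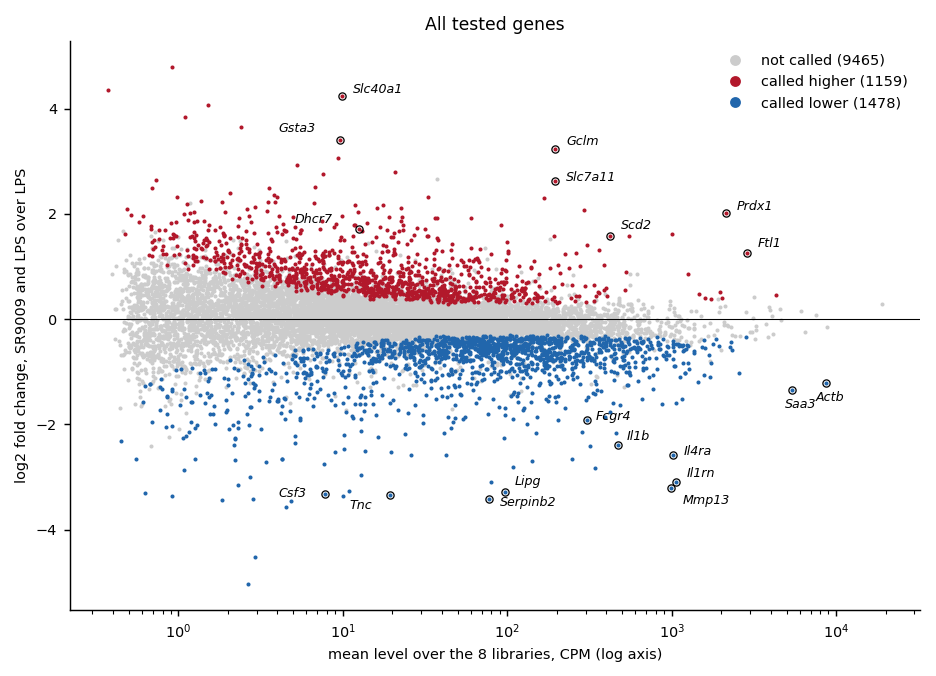
Log2 difference between SR9009 and LPS and LPS alone against mean level over the 8 libraries (CPM, log axis) for the 12102 tested genes, 1 point a gene. Red and blue points are the 1159 higher and 1478 lower genes that passed the test, grey points did not pass, and circled points are genes described in the text.

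The mice themselves formed 2 pairs. On the first principal component, which held 53.7% of the variance, the libraries of mice 1 and 2 scored −70.8 to −0.964 and those of mice 3 and 4 scored 30.2 to 45.1, and treatment separated on the second, which held 26.4%. The within-mouse change from LPS to SR9009 and LPS correlated across genes with r = 0.779 between mice 1 and 2, 0.753 between mice 3 and 4 and 0.421 to 0.438 between mice of different pairs, where genes are not independent replicates. The labels give no batch for the mice, and what sets the pairs apart was not tested. Fitted separately, a choice made after these values were seen, each pair leaves 1 residual degree of freedom, so the spread of a gene is taken mostly or wholly from that of all genes. That common spread (biological coefficient of variation) was 0.110 in mice 1 and 2 and 0.0820 in mice 3 and 4, against 0.184 over 4 mice, and the calls of a pair do not carry the spread between pairs. Mice 1 and 2 called 4845 of 11849 genes (40.9%) and mice 3 and 4 called 4346 (36.7%). Of these, 2127 genes (18.0%) passed in the same direction in both pairs, which is 43.9% of the calls of mice 1 and 2 and 48.9% of those of mice 3 and 4. Another 392 genes (3.31%) passed in opposite directions, 8.09% and 9.02% of those calls, and none of these passed with all 4 mice together. The difference between the pairs was not itself tested, and the results below rest on the 4 mice together unless a pair is named. The fit of 4 mice treats their changes as independent. It has no term for a different SR9009 effect in each pair, so its p-values leave this grouping out.

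The plasminogen system was led by a fall of an inhibitor gene. Serpinb2, the PAI-2 gene (ENSMUSG00000062345, chromosome 1, 107439153 to 107463208, plus strand, GRCm39), was at 117, 169, 148 and 128 CPM in the LPS libraries of mice 1 to 4 and at 7.39, 15.0, 14.0 and 18.4 CPM with SR9009 and LPS. Every treated library lay below every LPS library (log2 −3.41, SE 0.20, adjusted p = 0.000718), so the gene fell.

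On the activating side, Plau, the urokinase gene, was at 4.77, 4.30, 6.01 and 8.96 CPM with LPS and 1.96, 2.22, 4.66 and 6.78 CPM with SR9009 and LPS (log2 −0.72, adjusted p = 0.0521), lower in 4 of 4 mice but not past the threshold. Plat, the tissue-type activator gene, was at or under 2.74 CPM in every library and had no consistent direction (log2 −0.21, adjusted p = 0.663). Plaur, the urokinase receptor gene, was at 25.4, 39.3, 63.4 and 82.4 CPM with LPS and 6.04, 10.8, 35.7 and 53.5 CPM with SR9009 and LPS. It fell in each mouse (log2 −1.31, SE 0.27, adjusted p = 0.0215), although the treated libraries of mice 3 and 4 lay above the LPS libraries of mouse 1, and the groups overlap. Itgam, the CD11b integrin gene, a plasminogen receptor subunit, fell by 0.61 (SE 0.17, adjusted p = 0.0442). The partner genes Anxa2 and S100a10 of another plasminogen receptor had log2 differences of −0.12 and −0.21 and did not pass. In all, 4 of 17 tested members fell and none rose (23.5% called, near the 21.8% of all tested genes), with a median of −0.21 beside a median of −0.0036 for all tested genes, and 0 of 3 activators passed. For Plaur the adjusted p missed the threshold without mouse 1 or 2 (0.0553 to 0.0912) and for Itgam without mouse 2, 3 or 4 (0.103 to 0.141). The plasminogen list counted 3, 2, 3 and 3 lower when mice 1 to 4 were left out in turn, and 2 lower without the mouse term. Among 9 coagulation genes, F10 (factor X) fell by 0.72 and Tbxas1 (thromboxane synthase) by 0.45, and Gas6, a ligand of the receptors MERTK and AXL, rose by 0.47. For F10 the adjusted p missed the threshold without mouse 2 (0.0516), for Gas6 without mouse 2, 3 or 4 (0.0565 to 0.0669) and for Tbxas1 without mouse 1, 2, 3 or 4 (0.0593 to 0.115).

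**Figure D2:**
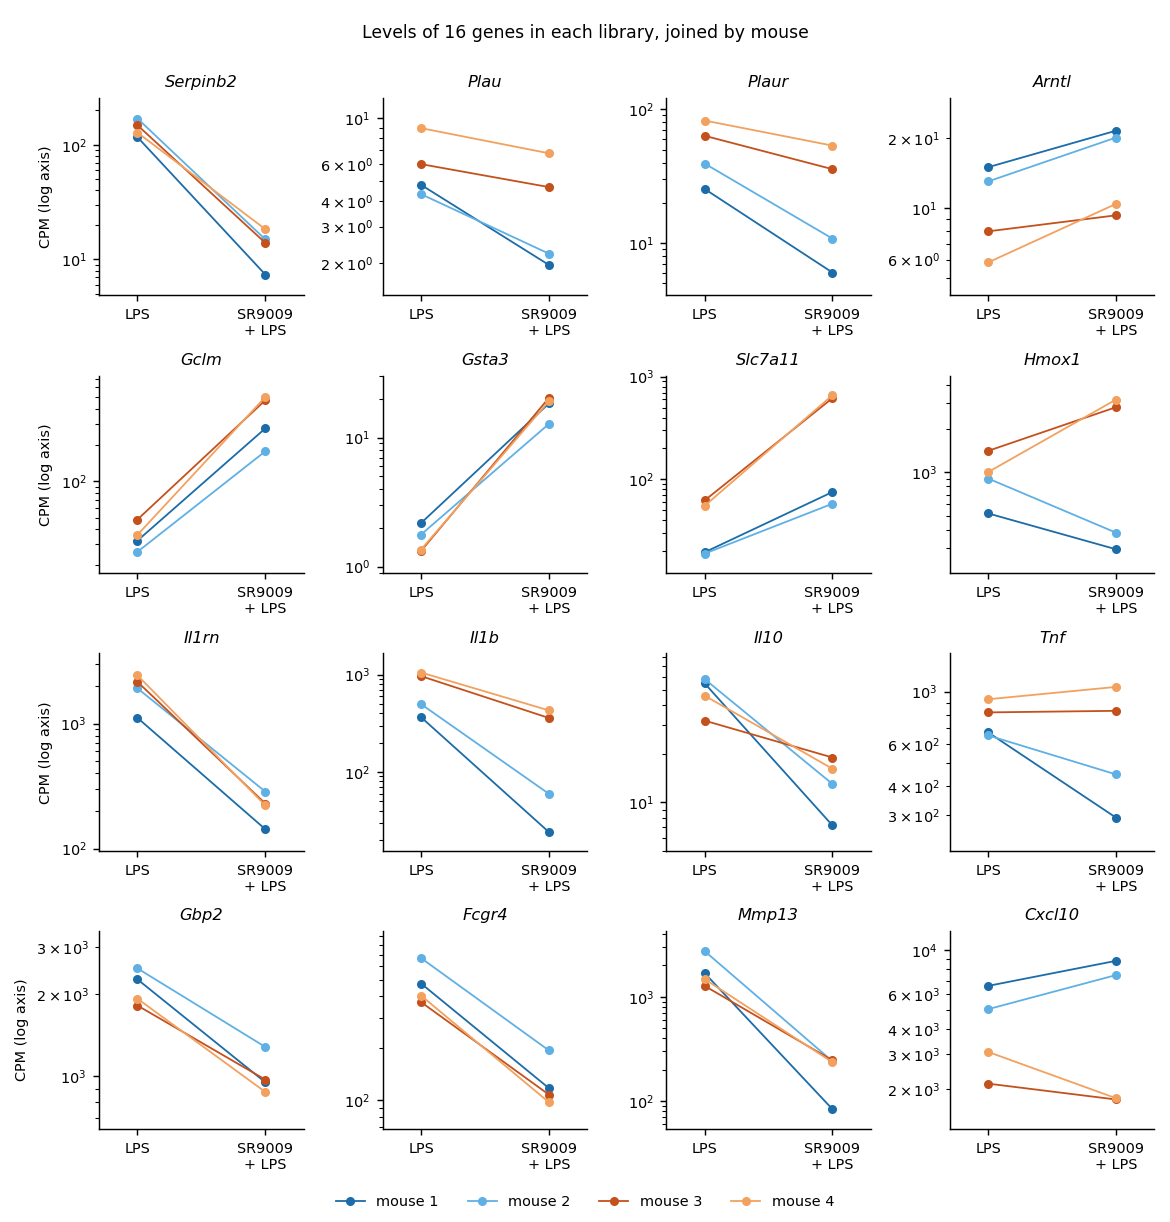
Level (CPM, log axis) of 16 genes in each of the 8 libraries, LPS beside SR9009 and LPS, with a line joining the 2 libraries of each mouse. For Serpinb2 every treated library lies below every LPS library, and for Gclm and Gsta3 above, while the lines of Hmox1 and Cxcl10 run down in 2 mice and up in 2.

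Of 20 tested clock genes 2 rose and 4 fell (30.0%, beside 21.8% of all tested genes), by less than 1 on the log2 scale. Arntl (ENSMUSG00000055116, chromosome 7, 112806672 to 112913333, plus strand) was at 15.0, 13.0, 7.94 and 5.84 CPM with LPS and 21.6, 20.2, 9.31 and 10.4 CPM with SR9009 and LPS. It was higher with SR9009 in every mouse (log2 0.55, SE 0.14, adjusted p = 0.0323), which is the direction opposite to textbook repression by REV-ERB, and the groups overlap because the LPS libraries of mice 1 and 2 lay above the treated libraries of mice 3 and 4. Its second promoter window in the RefSeq table holds the element AGGTCA that REV-ERB and ROR receptors bind, printed here in capitals, 31 bases after the start (GRCm38.p6, chr7:113207261-113207560, plus strand). AGGTCA occurs, on either strand, in 16.3% of the 32851 promoter windows of 300 bases, so the match is a description of the sequence only. For Arntl the adjusted p missed the threshold without mouse 1, 2 or 4 (0.0752 to 0.106).

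Arntl: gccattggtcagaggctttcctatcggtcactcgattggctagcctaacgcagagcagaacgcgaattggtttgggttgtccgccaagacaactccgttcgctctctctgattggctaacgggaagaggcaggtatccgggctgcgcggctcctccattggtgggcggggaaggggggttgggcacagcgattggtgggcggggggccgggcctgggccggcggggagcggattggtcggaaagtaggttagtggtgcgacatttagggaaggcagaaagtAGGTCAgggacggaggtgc

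Bhlhe40, a repressor of clock genes, rose by 0.62 (SE 0.16, adjusted p = 0.038). Per1 and Cry2 of the repressor limb fell by 0.48 and 0.66, Nfil3, a repressor of clock output genes, by 0.78, and Csnk1d, a kinase of PER proteins, by 0.33. The REV-ERB genes themselves did not pass: Nr1d1 was at 2.53, 2.22, 8.45 and 12.0 CPM with LPS and 3.82, 3.41, 4.04 and 5.75 CPM with SR9009 and LPS (log2 −0.31, adjusted p = 0.577), higher in mice 1 and 2 and lower in mice 3 and 4, and Nr1d2 had the same pattern (log2 0.05, adjusted p = 0.891). Dbp, an output gene, was at 7.86, 3.23, 2.65 and 1.59 CPM with LPS and 25.4, 16.6, 2.02 and 2.63 CPM with SR9009 and LPS, with the increase in mice 1 and 2 (log2 1.20, adjusted p = 0.102). Per3 had 1.21 and Bhlhe41 1.36, and neither passed over 4 mice. With the pairs fitted apart, Per3 was at 2.11 in mice 1 and 2 and 0.20 in mice 3 and 4, Dbp at 1.98 and 0.17, and Bhlhe41 at 0.25 and 2.47, and each passed only in the pair with the larger value. The clock list had a median of 0.04, and none of its members passed without the mouse term. For Bhlhe40 the adjusted p missed the threshold without mouse 2, 3 or 4 (0.0983 to 0.107), for Per1, Cry2 and Csnk1d without mouse 1, 2, 3 or 4 (0.053 to 0.178) and for Nfil3 without mouse 2 or 3 (0.0529 to 0.058). With mice 1 to 4 left out in turn, the clock list counted 2, 1, 3 and 0 higher genes. It counted 1, 0, 0 and 1 lower. These counts include genes that did not pass over 4 mice. Without mouse 2, none of the clock genes that rose or fell over 4 mice kept its call.

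Targets of NRF2, the transcription factor that binds antioxidant response elements and drives glutathione synthesis and peroxide defence, rose as a group: 28 of 45 tested members were higher and none lower, with a median of 0.90, beside 9.58% of all genes higher. The antioxidant response core is TGACNNNGC, searched on both strands. It occurs in 12.4% of all 32851 promoter windows (250 bases before to 50 after the start) of the RefSeq table. Counted by gene, a window holds it for 17.3% of the 9015 tested genes in that table and for 15 of the 40 tested NRF2 targets in it. Of these 40, 7 of the 25 that rose and 8 of the 15 that did not pass hold it, so the core was not more frequent among the risen targets. The 4 promoters below belong to risen targets of this kind, described in the next paragraphs, with the core in capitals, all on the plus strand of GRCm38.p6: Gclm at chr3:122245307-122245606, Prdx1 at chr4:116685349-116685648, Gsta3 at chr1:21240335-21240634 and Srxn1 at chr2:152105274-152105573. The core starts 134 bases before the start in Gclm, 133 before in Prdx1, 121 before in Gsta3 and 28 after in Srxn1. It reads on the plus strand in Gsta3 and on the minus strand in the other genes, and in Srxn1 it overlaps a match of AGGTCA.

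Gclm: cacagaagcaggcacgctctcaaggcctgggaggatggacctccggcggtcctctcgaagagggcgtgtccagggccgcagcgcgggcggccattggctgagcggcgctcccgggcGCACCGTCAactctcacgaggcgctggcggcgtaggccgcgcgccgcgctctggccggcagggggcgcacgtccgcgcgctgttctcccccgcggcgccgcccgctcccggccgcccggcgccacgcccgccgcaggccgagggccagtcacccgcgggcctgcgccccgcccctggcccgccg
Prdx1: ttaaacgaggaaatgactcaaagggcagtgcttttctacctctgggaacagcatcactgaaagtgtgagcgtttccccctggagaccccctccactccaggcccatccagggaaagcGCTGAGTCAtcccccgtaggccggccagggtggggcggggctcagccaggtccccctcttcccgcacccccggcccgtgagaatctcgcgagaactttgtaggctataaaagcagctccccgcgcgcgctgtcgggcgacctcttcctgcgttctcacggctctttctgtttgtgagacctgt
Gsta3: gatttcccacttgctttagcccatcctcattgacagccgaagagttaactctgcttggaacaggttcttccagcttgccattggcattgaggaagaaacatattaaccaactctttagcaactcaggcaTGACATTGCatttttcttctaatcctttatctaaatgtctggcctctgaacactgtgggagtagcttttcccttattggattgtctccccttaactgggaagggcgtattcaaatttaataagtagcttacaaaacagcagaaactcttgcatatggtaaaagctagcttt
Srxn1: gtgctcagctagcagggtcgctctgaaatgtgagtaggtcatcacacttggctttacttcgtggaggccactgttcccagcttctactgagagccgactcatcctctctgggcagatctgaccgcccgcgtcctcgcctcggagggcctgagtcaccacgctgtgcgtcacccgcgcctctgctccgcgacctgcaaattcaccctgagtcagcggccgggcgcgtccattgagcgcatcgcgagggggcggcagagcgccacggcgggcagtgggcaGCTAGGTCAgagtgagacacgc

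Glutathione genes showed large increases. Gclm, the modifier subunit of glutamate-cysteine ligase, which limits the rate at which glutathione is made (ENSMUSG00000028124, chromosome 3, 122039206 to 122064381, plus strand, GRCm39), was at 32.1, 26.0, 48.1 and 35.9 CPM with LPS and 275, 177, 470.4 and 500.2 CPM with SR9009 and LPS. The groups were far apart, and Gclm rose by 3.24 (log2; SE 0.18, adjusted p = 0.000628). Gsta3, a transferase that conjugates glutathione (ENSMUSG00000025934, chromosome 1, 21310813 to 21335885, plus strand), went from 2.18, 1.77, 1.32 and 1.36 CPM to 18.4, 12.7, 20.3 and 19.1 CPM and rose by 3.41 (SE 0.23, adjusted p = 0.000761). Slc7a11, the cystine transporter that feeds glutathione synthesis, was at 19.6, 19.0, 62.5 and 55.4 CPM with LPS and 75.5, 58.1, 618 and 659.5 CPM with SR9009 and LPS. Here mice 3 and 4 stood apart, with a higher starting level and a larger rise, and the LPS library of mouse 3 lay above the treated library of mouse 2 (log2 2.63, SE 0.38, adjusted p = 0.00806). Abcc1, an exporter of glutathione conjugates, rose by 1.58 and Gstm1 by 0.96, and 12 of 16 tested glutathione members rose with a median of 1.47. Gsta3 and Gstm1 have close relatives in multigene families, so reads could be split between copies.

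Peroxide defence followed. Prdx1, an abundant peroxiredoxin gene (ENSMUSG00000028691), was at 803, 921, 809.7 and 795 CPM with LPS and 2876, 2291, 4410.0 and 4294 CPM with SR9009 and LPS, without overlap (log2 2.01, SE 0.21, adjusted p = 0.00288). Srxn1, which repairs oxidised peroxiredoxins (ENSMUSG00000032802), was at 30.0, 33.7, 59.7 and 48.4 CPM with LPS and 88.6, 74.2, 478 and 521 CPM with SR9009 and LPS, and rose more in mice 3 and 4 (log2 2.29, SE 0.42, adjusted p = 0.0163). Nqo1, a quinone reductase gene, went from 2.46, 2.72, 2.29 and 1.89 CPM to 8.90, 8.99, 10.9 and 15.6 CPM (log2 2.21, adjusted p = 0.00291). Akr1b8, an aldo-keto reductase gene, rose by 1.58, and Me1, malic enzyme, a source of NADPH, by 1.46. Of the thioredoxin, quinone and peroxide genes 10 of 15 rose, and of the NADPH genes 4 of 6.

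Among the regulators, Sqstm1, the autophagy receptor p62 that binds the NRF2 inhibitor KEAP1, rose by 1.62 (SE 0.30, adjusted p = 0.0169). Nfe2l2, the NRF2 gene, was at 353, 327, 299.7 and 270.4 CPM with LPS and 198, 267, 349 and 327 CPM with SR9009 and LPS and did not pass (log2 −0.16, adjusted p = 0.603). Hmox1, heme oxygenase 1, a much used NRF2 target (ENSMUSG00000005413, chromosome 8, 75820249 to 75827217, plus strand), was at 518, 903, 1403 and 1001 CPM with LPS and 293, 382, 2808 and 3169.8 CPM with SR9009 and LPS. It was lower in both mice 1 and 2 and higher in both mice 3 and 4 (log2 −1.04 and 1.37 when the pairs were fitted apart), so its value over 4 mice is near 0 (log2 0.15, SE 0.53, adjusted p = 0.866). In the 2 pairs, 26 of 44 NRF2 targets passed in the same direction and 6 in opposite ones, with medians of 0.65 and 1.14. Without the mouse term 14 members rose and none fell, and leaving out mice 1 to 4 in turn gave 29, 21, 21 and 23 higher, and 1 lower in the last. For Sqstm1 the adjusted p missed the threshold without mouse 3 (0.0522).

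Iron export and heme handling changed alongside. Slc40a1, the only known cellular iron exporter (ferroportin; ENSMUSG00000025993, chromosome 1, 45947228 to 45965683, minus strand), had the largest log2 difference of the named genes: 0.211, 0.317, 2.24 and 1.36 CPM with LPS and 6.09, 6.52, 29.0 and 33.4 CPM with SR9009 and LPS (log2 4.23, SE 0.23, adjusted p = 0.000561). Its LPS level in mice 1 and 2 was a few reads per library, which makes the size of the difference uncertain there, and the groups did not overlap. Ftl1, the ferritin light chain gene, was at 1629, 1718, 1785 and 1627 CPM with LPS and 4075, 3984, 3958 and 4166 CPM with SR9009 and LPS (log2 1.26, adjusted p = 0.00127). This gene has processed copies in the genome to which reads could be assigned. Slc48a1, a heme transporter, rose by 1.24. Cp, ceruloplasmin, which oxidises exported iron, fell by 1.76, Slc11a2, an iron importer, by 0.64, and Lcn2, lipocalin 2, which binds bacterial iron carriers, from 448, 745, 473 and 455 CPM to 43.0, 86.6, 152 and 157 CPM (log2 −2.41, SE 0.37, adjusted p = 0.00993). Of 18 tested iron and heme genes 4 rose and 4 fell. The iron list counted 3, 3, 3 and 3 higher and 3, 3, 3 and 3 lower when mice 1 to 4 were left out in turn, and 3 higher and 2 lower without the mouse term.

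Cholesterol synthesis, the pathway driven by SREBP2, rose: 11 of 20 enzymes and 2 of 6 control genes were higher and none lower, with a median of 0.95 over the 26. Dhcr7, which catalyses the last step (ENSMUSG00000058454, chromosome 7, 143376882 to 143402147, plus strand), was at 7.93, 5.70, 5.09 and 4.83 CPM with LPS and 18.4, 14.9, 19.7 and 24.3 CPM with SR9009 and LPS (log2 1.72, SE 0.21, adjusted p = 0.00398). Mvd rose by 1.51, Tm7sf2 by 1.23, Hmgcs1 by 0.98 and Stard4, a sterol carrier gene, by 1.13. The size differed by mouse: the list's median change was 0.20 and 0.55 in mice 1 and 2 and 1.28 and 1.57 in mice 3 and 4. Without the mouse term 3 members passed, without mouse 1 19 did, and without mouse 2, 3 or 4 the count was 7, 6 and 7.

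Fatty acid desaturation rose with it. Scd1, stearoyl-CoA desaturase 1, was at 24.4, 16.6, 22.1 and 39.1 CPM with LPS and 116, 85.0, 71.9 and 105 CPM with SR9009 and LPS (log2 1.93, SE 0.18, adjusted p = 0.00204). Scd2 (ENSMUSG00000025203, chromosome 19, 44282113 to 44295303, plus strand) was at 191, 183, 271 and 199 CPM with LPS and 530.1, 461, 756 and 806 CPM with SR9009 and LPS (log2 1.57, adjusted p = 0.00149). No treated library of either gene overlapped an LPS library. Fads1 and Fads2, which desaturate polyunsaturated fatty acids, rose by 1.25 and 1.13. Of 16 synthesis and desaturation genes 8 rose and none fell (median 0.86), while of 10 triglyceride and phospholipid genes 1 rose and 4 fell, with Dgat2, which makes triglycerides, at 19.4, 19.2, 15.0 and 11.4 CPM with LPS and 3.67, 6.08, 4.19 and 5.17 CPM with SR9009 and LPS (log2 −1.76, adjusted p = 0.00388). All 26 tested genes of fatty acid and glyceride synthesis counted 9, 8, 7 and 8 higher and 1, 1, 1 and 4 lower when mice 1 to 4 were left out in turn, and 5 higher and 1 lower without the mouse term.

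Genes of the LXR axis, which senses oxysterols, fell in 3 of 13 cases and rose in 1 (30.8% called, beside 21.8% of all tested genes). Ch25h, the enzyme that makes 25-hydroxycholesterol, fell by 1.89 (SE 0.18, adjusted p = 0.00238), the phospholipid transfer gene Pltp by 0.67 and the cholesterol exporter Abca1 by 0.58, while Mylip, which degrades the LDL receptor, rose by 0.89. Among 15 lipid uptake and breakdown genes, 5 rose and 3 fell. Lipa, lysosomal acid lipase, rose by 1.31, the fatty acid translocase Cd36 by 0.86 and the carrier Fabp5 by 0.65. Lipg, endothelial lipase, was at 81.8, 139, 189 and 289 CPM with LPS and 4.38, 15.8, 28.1 and 31.6 CPM with SR9009 and LPS, with no overlap (log2 −3.29, SE 0.24, adjusted p = 0.00139), and the scavenger receptor Msr1 fell by 0.88. For Abca1 the adjusted p missed the threshold without mouse 2, 3 or 4 (0.121 to 0.156) and for Mylip without mouse 3 or 4 (0.0504 to 0.0566). The LXR list counted 1, 2, 0 and 0 higher and 3, 2, 2 and 3 lower when mice 1 to 4 were left out in turn, and 0 higher and 0 lower without the mouse term. The lipid uptake list counted 4, 4, 4 and 4 higher and 2, 2, 2 and 3 lower when mice 1 to 4 were left out in turn, and 2 higher and 2 lower without the mouse term.

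**Figure D3:**
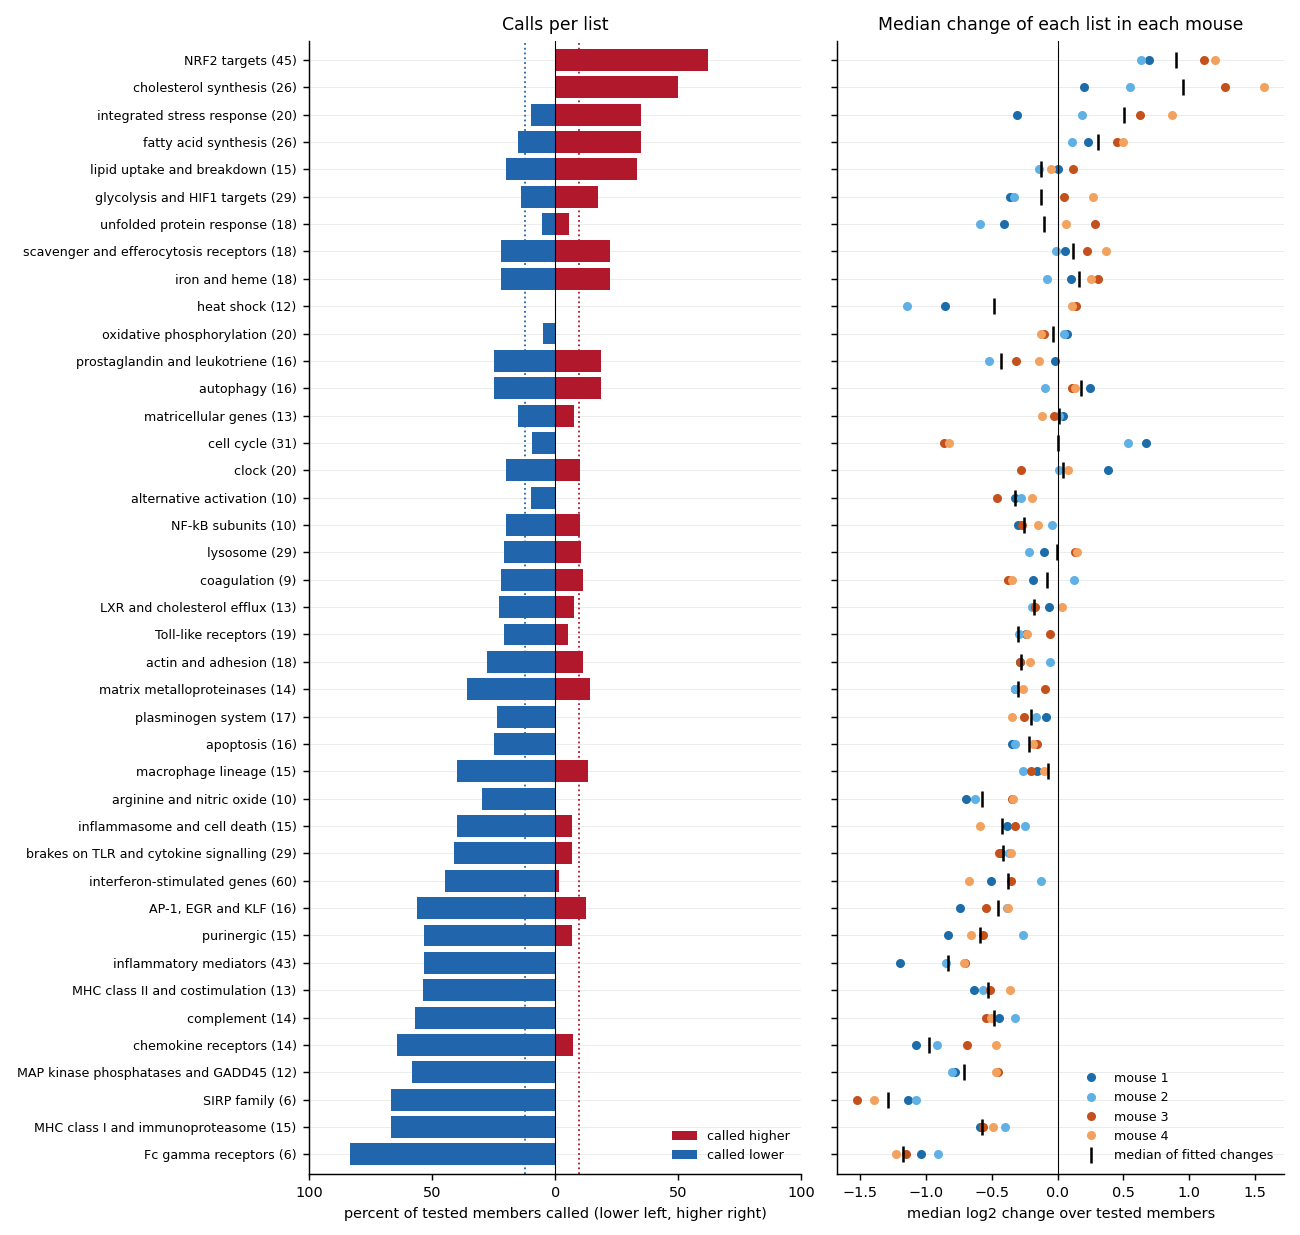
Left, the percentage of tested members of each gene list that were called higher (red) or lower (blue) with SR9009 and LPS, for lists with at least 5 tested members (their number in brackets), with dotted lines at the shares of all tested genes, 9.58% and 12.2%. Right, the median log2 change of each list in each mouse (points) and in the fit (bars): NRF2 targets lie to the right in every mouse, and cell cycle genes lie on opposite sides for mice 1 and 2 and mice 3 and 4.

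Inflammatory mediators fell in 23 of 43 tested cases and rose in none, with a median of −0.83, beside 12.2% of all genes lower. Il1b, a leading NF-κB target, was at 365, 498, 965 and 1052 CPM with LPS and 24.2, 59.8, 359 and 429 CPM with SR9009 and LPS. Mice 3 and 4 had the higher level in both groups, and with SR9009 they stood near the LPS level of mouse 1, so the groups overlap although each mouse fell (log2 −2.40, SE 0.49, adjusted p = 0.0218). Il10, an anti-inflammatory cytokine, was at 54.6, 58.0, 32.1 and 45.8 CPM with LPS and 7.19, 13.0, 19.0 and 16.1 CPM with SR9009 and LPS, without overlap (log2 −1.82, SE 0.35, adjusted p = 0.0174). Il19, of the same cytokine family, fell by 2.96, Csf3 (G-CSF) by 3.31, Ebi3, a subunit of interleukin 27, by 0.83, and Il12b by 0.59. Csf3 was at 0, 0.0988, 2.49 and 4.05 CPM with SR9009 and LPS, and its LPS libraries ran from 0.561 to 26.0 CPM, lower in mice 1 and 2 than in mice 3 and 4. For Il1b and Il10 the adjusted p missed the threshold without mouse 2 (0.0804 to 0.0903) and for Il12b without mouse 1, 2 or 4 (0.138 to 0.19).

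Of 17 tested chemokines 8 fell and none rose. Ccl7, which attracts monocytes, was at 368, 548, 585 and 786 CPM with LPS and 14.8, 57.3, 184 and 209 CPM with SR9009 and LPS (log2 −2.82, SE 0.53, adjusted p = 0.0168). Ccl12 was at 218, 304, 176 and 282 CPM with LPS and 18.8, 54.8, 37.3 and 47.1 CPM with SR9009 and LPS (log2 −2.70, SE 0.22, adjusted p = 0.00176). Neither gene had a treated library as high as its lowest LPS library. Cxcl9 fell by 1.12. Cxcl10, by contrast, was at 6615, 5048, 2125 and 3071 CPM with LPS and 8848, 7499, 1768 and 1794 CPM with SR9009 and LPS, higher in mice 1 and 2 and lower in mice 3 and 4 (log2 −0.01, adjusted p = 0.98), and its sign turned with upper-quartile scaling (0.07). Of the acute phase genes, Saa3 fell by 1.35, and Hp, haptoglobin, went from 132, 228, 208 and 164 CPM to 6.74, 20.4, 50.5 and 53.0 CPM (log2 −2.81, adjusted p = 0.0129). For Ccl7 and Hp the adjusted p missed the threshold without mouse 2 (0.0576 to 0.0752) and for Saa3 without mouse 1, 2 or 3 (0.0503 to 0.145).

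Several classical LPS targets did not pass. Tnf was at 673, 653, 817 and 929.1 CPM with LPS and 293, 447, 830.1 and 1048 CPM with SR9009 and LPS (log2 −0.38, SE 0.23, adjusted p = 0.276), lower in mice 1 and 2 and slightly higher in mice 3 and 4. Ptgs2, cyclooxygenase 2, was at 253, 331, 796 and 906 CPM with LPS and 31.7, 70.7, 805 and 893 CPM with SR9009 and LPS, with the whole difference in mice 1 and 2 (log2 −1.28, adjusted p = 0.17). Nos2, inducible nitric oxide synthase, had log2 −0.79 (adjusted p = 0.119), Il6 −0.96 (adjusted p = 0.103) and Acod1, the itaconate enzyme, −0.15 (adjusted p = 0.609). In the 2 mouse pairs, the list's median was −1.23 and −0.61. Without the mouse term 7 mediators passed, all lower, and leaving out mice 1 to 4 in turn gave 17, 12, 16 and 19 lower. In arginine and nitric oxide metabolism, 3 of 10 genes fell, among them Gch1, which makes the cofactor of nitric oxide synthase (−0.68), and the arginine transporter Slc7a2 (−0.84). For Slc7a2 the adjusted p missed the threshold without mouse 2 (0.085). The arginine list counted 3, 1, 2 and 3 lower when mice 1 to 4 were left out in turn, and 0 lower without the mouse term.

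Several genes listed as brakes on this signalling fell too. Il1rn, the interleukin 1 receptor antagonist gene (ENSMUSG00000026981, chromosome 2, 24226865 to 24241506, plus strand), was at 1112, 1916, 2159 and 2432 CPM with LPS and 143, 286, 229 and 222 CPM with SR9009 and LPS. The 2 groups were separated by a wide gap (log2 −3.10, SE 0.15, adjusted p = 0.000558). Il4ra, the interleukin 4 receptor alpha chain, which is a receptor subunit and not itself a brake, was at 1576, 2516, 1451 and 1470.1 CPM with LPS and 301, 344, 269.7 and 235 CPM with SR9009 and LPS (log2 −2.58, SE 0.12, adjusted p = 0.000558). Il18bp, the decoy of interleukin 18, fell by 1.30, Tnip3, an inhibitor of NF-κB signalling, by 1.61, and Bcl3, an atypical IκB protein, by 0.79. In this list 12 of 29 genes fell (median −0.42) and 2 rose: Tsc22d3, the glucocorticoid-induced GILZ gene, by 1.47, and the deubiquitinase Cyld by 0.32. For Cyld the adjusted p missed the threshold without mouse 1, 2, 3 or 4 (0.0756 to 0.116). The list of brakes counted 1, 1, 1 and 2 higher and 9, 6, 9 and 10 lower when mice 1 to 4 were left out in turn, and 1 higher and 6 lower without the mouse term. Of 12 MAP kinase phosphatase and GADD45 genes, 7 fell and none rose (median −0.72). Dusp1 was at 356, 466, 369.7 and 448 CPM with LPS and 10.5, 64.8, 135 and 139 CPM with SR9009 and LPS, with mouse 1 lowest of the treated libraries (log2 −2.66, SE 0.62, adjusted p = 0.0316). Dusp2 fell by 1.87, Dusp16 by 0.86 and Gadd45b by 0.42. For Dusp1 the adjusted p missed the threshold without mouse 2 or 4 (0.0573 to 0.117) and for Gadd45b without mouse 1, 2, 3 or 4 (0.0679 to 0.122). The phosphatase list counted 5, 4, 4 and 4 lower when mice 1 to 4 were left out in turn, and 2 lower without the mouse term.

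Transcription factors of the AP-1, EGR and KLF families fell in 9 of 16 cases and 2 rose, with a median of −0.45. Egr1 fell from 2.81, 4.18, 6.62 and 5.54 CPM to 0.453, 1.38, 0.235 and 0.439 CPM (log2 −3.0, SE 0.50, adjusted p = 0.0105), Batf by 1.49, Fos by 0.98 and Junb by 0.92. Klf9, a target of glucocorticoids and of the clock, rose from 1.47, 1.39, 0.611 and 0.589 CPM to 9.41, 5.78, 2.21 and 2.00 CPM (log2 2.12, adjusted p = 0.00342), with the treated level of mice 1 and 2 above that of mice 3 and 4, and Klf4 rose by 1.19. Gfi1, a transcriptional repressor and 1 of the largest decreases, was at 13.7, 21.8, 20.2 and 16.3 CPM with LPS and 0.453, 0.494, 3.53 and 4.24 CPM with SR9009 and LPS (log2 −3.35, SE 0.60, adjusted p = 0.0154). For Fos the adjusted p missed the threshold without mouse 3 (0.0524), for Batf without mouse 2 (0.0777) and for Klf4 without mouse 2 or 3 (0.0563 to 0.0592). The AP-1, EGR and KLF list counted 2, 1, 1 and 2 higher and 5, 4, 5 and 8 lower when mice 1 to 4 were left out in turn, and 0 higher and 2 lower without the mouse term. The receptors of LPS did not pass: Tlr4 had a log2 difference of −0.07 (adjusted p = 0.676) and Cd14, its coreceptor, 0.23 (adjusted p = 0.219), and the sign of Tlr4 turned with upper-quartile scaling (0.01). Of 19 genes of the TLR pathway 4 fell and 1 rose (26.3% called, near the 21.8% of all tested genes). Tlr3 fell by 0.95, Tlr7 by 0.57 and the adaptors Myd88 and Ticam1 by 0.79 and 0.96, while the kinase Irak1 rose by 0.38. For Tlr7 the adjusted p missed the threshold without mouse 2 (0.0548), for Ticam1 without mouse 2 or 3 (0.0598 to 0.135) and for Irak1 without mouse 1, 2, 3 or 4 (0.0594 to 0.108). The TLR list counted 0, 0, 0 and 0 higher and 4, 2, 3 and 4 lower when mice 1 to 4 were left out in turn, and 0 higher and 3 lower without the mouse term. In the NF-κB list 1 of 10 genes rose and 2 fell (30.0% called, beside 21.8% of all tested genes). Ikbkg, the regulatory subunit NEMO, rose by 0.87, and Tbk1, the kinase upstream of interferon beta, fell by 0.35. For Tbk1 the adjusted p missed the threshold without mouse 1, 2, 3 or 4 (0.0731 to 0.223). The NF-κB list counted 1, 1, 1 and 2 higher and none lower when mice 1 to 4 were left out in turn. Without the mouse term 1 was higher and none lower.

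Interferon-stimulated genes fell in 27 of 60 cases and 1 rose, with a median of −0.38. Gbp2, a guanylate-binding GTPase gene (ENSMUSG00000028270, chromosome 3, 142326363 to 142343769, plus strand), was at 2274, 2496, 1821 and 1929 CPM with LPS and 949, 1281, 971 and 874 CPM with SR9009 and LPS (log2 −1.07, SE 0.11, adjusted p = 0.00238). No treated library reached an LPS library. Gbp3 and Gbp4 fell by 0.93 and 1.33, and 8 of 14 GTPases fell with a median of −0.76, with the reservation that these genes are similar in sequence. Isg20, an antiviral exonuclease gene, fell by 1.13, Ifi208, of the p200 sensor family, by 1.18, Zbp1, a nucleic acid sensor, by 0.76 and Ifit1bl1 by 1.47. The IFIT genes were not uniform: Ifit3, which has the near-identical copy Ifit3b, was at 1993, 1608, 802 and 996 CPM with LPS and 1993, 2202, 719 and 631 CPM with SR9009 and LPS (log2 −0.09, adjusted p = 0.749). Parp14 was the member that rose (log2 0.48, adjusted p = 0.0443). For Parp14 the adjusted p missed the threshold without mouse 1, 2 or 3 (0.0826 to 0.13). The interferon list counted 0, 0, 0 and 1 higher and 20, 16, 23 and 21 lower when mice 1 to 4 were left out in turn, and 0 higher and 11 lower without the mouse term. Antigen presentation by MHC class I fell in 10 of 15 cases with none higher (median −0.58), including the immunoproteasome subunits Psmb10 (−1.24) and Psmb8 (−0.70) and the peptide transporter Tap2 (−0.63). The class I list counted 5, 5, 6 and 8 lower when mice 1 to 4 were left out in turn, and 3 lower without the mouse term.

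Of 6 Fc receptor genes 5 fell, with a median of −1.18. Fcgr4, an activating receptor for immunoglobulin G (ENSMUSG00000059089, chromosome 1, 170846489 to 170857330, plus strand), was at 475, 668, 371 and 404 CPM with LPS and 117, 194, 107 and 97.1 CPM with SR9009 and LPS (log2 −1.91, SE 0.10, adjusted p = 0.000561). The inhibitory receptor Fcgr2b fell by 1.34, Fcgr3 by 1.37, the high-affinity Fcgr1 by 1.02 and the neonatal receptor Fcgrt by 0.37. The activating and the inhibitory receptors therefore moved the same way, and all but Fcgrt did so without overlap between groups. For Fcgrt the adjusted p missed the threshold without mouse 1, 2, 3 or 4 (0.112 to 0.163). The Fc receptor list counted 4, 4, 4 and 4 lower when mice 1 to 4 were left out in turn, and 3 lower without the mouse term.

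Cd74, the invariant chain of MHC class II, was at 269, 296, 124 and 84.1 CPM with LPS and 74.9, 79.0, 36.4 and 32.5 CPM with SR9009 and LPS (log2 −1.72, SE 0.12, adjusted p = 0.000784). The class II gene H2-Aa fell by 1.37 and the costimulatory receptors Cd40 and Cd86 by 0.73 and 1.05, and 7 of 13 genes of this list fell with none higher. Chemokine receptors fell in 9 of 14 cases (median −0.98). Ccr1 was at 23.3, 20.4, 17.5 and 19.9 CPM with LPS and 10.8, 8.05, 3.95 and 3.66 CPM with SR9009 and LPS (log2 −1.74, adjusted p = 0.00644). Ccr3 fell by 2.23 and the fractalkine receptor Cx3cr1 by 1.57, while Cxcr4 was the 1 member that rose (0.76), at no more than 3.52 CPM. For Cx3cr1 the adjusted p missed the threshold without mouse 1, 2 or 3 (0.0543 to 0.132) and for Cxcr4 without mouse 1, 2, 3 or 4 (0.0827 to 0.133). The class II list counted 5, 5, 5 and 6 lower when mice 1 to 4 were left out in turn, and 2 lower without the mouse term. The chemokine receptor list counted 0, 0, 0 and 0 higher and 4, 3, 4 and 7 lower when mice 1 to 4 were left out in turn, and 0 higher and 2 lower without the mouse term.

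Gm5150, a SIRP family gene, was at 12.4, 24.1, 22.7 and 19.7 CPM with LPS and 2.26, 2.57, 1.79 and 1.46 CPM with SR9009 and LPS (log2 −3.27, SE 0.24, adjusted p = 0.00112). Sirpb1a fell by 2.24, and 4 of 6 SIRP family genes fell, but Gm5150 and the Sirpb1 genes are near-identical copies between which reads cannot be placed with certainty. In the purinergic list 8 of 15 genes fell and 1 rose. P2ry6, a UDP receptor, fell by 1.57 and Xdh, which breaks down purines, by 0.98. Panx1, an ATP release channel, was at 5.75, 4.43, 4.79 and 4.24 CPM with LPS and 23.6, 18.3, 53.2 and 51.6 CPM with SR9009 and LPS, a rise in every mouse without overlap (log2 2.80, SE 0.33, adjusted p = 0.0048). Complement genes fell in 8 of 14 cases with none higher (median −0.48), with C4b at −2.08, Cfb at −1.60 and C1qc at −0.50. For P2ry6 the adjusted p missed the threshold without mouse 2 (0.0542), for Cfb without mouse 2 or 3 (0.0501 to 0.108) and for C1qc without mouse 1, 3 or 4 (0.0573 to 0.0739). The SIRP list counted 4, 4, 4 and 5 lower when mice 1 to 4 were left out in turn, and 1 lower without the mouse term. The purinergic list counted 1, 1, 1 and 3 higher and 3, 5, 5 and 5 lower when mice 1 to 4 were left out in turn, and 1 higher and 0 lower without the mouse term. The complement list counted 4, 4, 2 and 4 lower when mice 1 to 4 were left out in turn, and 2 lower without the mouse term.

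Macrophage lineage factors went in both directions, with 2 higher and 6 lower of 15. Mertk, a receptor for the uptake of dying cells, was at 67.9, 52.2, 14.4 and 14.3 CPM with LPS and 114, 118, 53.7 and 44.9 CPM with SR9009 and LPS (log2 1.35, SE 0.19, adjusted p = 0.00675), higher in each mouse, with mice 3 and 4 low in both groups. The related receptor Axl fell by 0.53. Cebpa, a myeloid factor, rose by 1.56, while Spi1 (PU.1), the lineage-defining factor, fell by 0.57. Of 18 scavenger and efferocytosis receptors 4 rose and 4 fell, with the lectin Clec4n at 1.60. For Axl the adjusted p missed the threshold without mouse 1 or 3 (0.0512 to 0.0582), for Cebpa without mouse 2 or 3 (0.0614 to 0.0933) and for Spi1 without mouse 1, 2 or 3 (0.0572 to 0.0779). The lineage list counted 2, 1, 1 and 2 higher and 3, 3, 1 and 6 lower when mice 1 to 4 were left out in turn, and 1 higher and 0 lower without the mouse term. The scavenger list counted 4, 4, 4 and 4 higher and 2, 2, 1 and 3 lower when mice 1 to 4 were left out in turn, and 0 higher and 1 lower without the mouse term.

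Several matrix-degrading enzymes and the inhibitor Timp1 fell. Mmp13, collagenase 3 (ENSMUSG00000050578, chromosome 9, 7272514 to 7283331, plus strand), was at 1684, 2737, 1272 and 1477 CPM with LPS and 83.8, 241, 246 and 236 CPM with SR9009 and LPS (log2 −3.20, SE 0.35, adjusted p = 0.0041). The lowest treated library was that of mouse 1, and the other 3 lay close together. Mmp25 fell by 2.18, Mmp14, the membrane protease that also activates other metalloproteinases, by 0.84, and Timp1, their inhibitor, by 2.53. Adamts4 rose by 1.92 and Mmp12, the macrophage elastase, by 1.01, which left 2 higher and 5 lower of 14. For Mmp12 the adjusted p missed the threshold without mouse 2, 3 or 4 (0.0694 to 0.133). The metalloproteinase list counted 2, 1, 1 and 1 higher and 5, 4, 4 and 5 lower when mice 1 to 4 were left out in turn, and 0 higher and 3 lower without the mouse term. Among matricellular genes Tnc, tenascin C, was at 19.9, 28.9, 42.7 and 47.9 CPM with LPS and 1.36, 2.87, 4.99 and 5.27 CPM with SR9009 and LPS (log2 −3.34, SE 0.16, adjusted p = 0.000558), Vcan, versican, fell by 1.91, and the integrin Itgav rose by 0.41. Of 13 tested matricellular genes 1 rose and 2 fell (23.1% called, near the 21.8% of all tested genes), with a median of 0.01. For Itgav the adjusted p missed the threshold without mouse 2 or 3 (0.0746 to 0.0755).

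Edn1, the vasoconstrictor endothelin 1, was at 90.8, 129.8, 139 and 176 CPM with LPS and 1.11, 8.79, 48.8 and 47.2 CPM with SR9009 and LPS, with mice 1 and 2 far below mice 3 and 4 after treatment (log2 −3.09, SE 0.77, adjusted p = 0.0375). Its receptor gene Ednrb moved the other way, from 0.842, 1.71, 2.70 and 2.24 CPM to 7.95, 7.51, 27.6 and 23.9 CPM (log2 3.06, SE 0.25, adjusted p = 0.00139). Actb, which is often used as a reference gene, was at 12442, 13088, 10949 and 11966 CPM with LPS and 4001, 5297, 5685 and 6105 CPM with SR9009 and LPS and fell by 1.21 (SE 0.15, adjusted p = 0.00384). Fscn1, the actin bundler fascin, fell by 1.32. Pdpn, podoplanin, a sialoglycoprotein that binds the actin linkers, fell by 0.73. For Edn1 the adjusted p missed the threshold without mouse 2 or 4 (0.0633 to 0.137) and for Pdpn without mouse 1 or 2 (0.103 to 0.115).

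Of 29 glycolysis genes and HIF1 targets 5 rose and 4 fell (31.0% called, beside 21.8% of all tested genes). Pfkfb3, which makes the activator of phosphofructokinase, was at 1700.4, 1721, 1510.5 and 1458 CPM with LPS and 344, 583, 686 and 551 CPM with SR9009 and LPS (log2 −1.60, SE 0.19, adjusted p = 0.0041). Ndrg1 fell by 1.45, while Aldoc rose by 1.09 and Vegfa by 1.12. Of 20 ATF4 targets 7 rose and 2 fell, with a median of 0.50. Phgdh, the first enzyme of serine synthesis, rose by 2.04, Asns, asparagine synthetase, by 1.69, and Psat1, the next enzyme of serine synthesis, fell by 0.98. Of 18 unfolded protein response genes 16 did not pass (11.1% called, below the 21.8% of all tested genes). The sensor Ern1 rose (0.57) and the sensor Atf6 fell (−0.49). Of 20 oxidative phosphorylation genes only Cycs, cytochrome c, passed (−0.71). For Vegfa and Atf6 the adjusted p missed the threshold without mouse 2, 3 or 4 (0.0577 to 0.0822). The glycolysis list counted 4, 1, 1 and 1 higher and 3, 3, 2 and 2 lower when mice 1 to 4 were left out in turn, and 1 higher and 2 lower without the mouse term. The ATF4 list counted 8, 4, 4 and 4 higher and 1, 1, 1 and 1 lower when mice 1 to 4 were left out in turn, and 1 higher and 0 lower without the mouse term.

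Lysosomal genes had 3 higher and 6 lower of 29, among them the protease Ctsd (0.52) and the saposin precursor Psap (0.45), both higher. Autophagy genes had 3 higher and 4 lower of 16, with Gabarapl1 at 1.24 and the receptor Optn at −1.13. In the inflammasome list 6 of 15 fell, including the pore former Gsdmd (−0.79) and the LPS sensor Casp4 (−0.59), and Ninj1, which ruptures the membrane of dying cells, was the 1 member that rose (1.03). Bcl2l1, the survival gene BCL-XL, was at 132, 183, 223 and 244 CPM with LPS and 13.3, 26.8, 113 and 123 CPM with SR9009 and LPS (log2 −1.98, SE 0.46, adjusted p = 0.03), far lower in mice 1 and 2 than in mice 3 and 4. Of 16 prostaglandin genes, Hpgds, prostaglandin D synthase, fell by 1.23 and the receptor Ptger2 rose by 1.19, among 3 higher and 4 lower. For Ctsd and Psap the adjusted p missed the threshold without mouse 2, 3 or 4 (0.0502 to 0.113) and for Bcl2l1 without mouse 1 or 2 (0.0655 to 0.115). The lysosome list counted 2, 0, 0 and 0 higher and 0, 0, 3 and 2 lower when mice 1 to 4 were left out in turn, and 0 higher and 0 lower without the mouse term. The autophagy list counted 2, 2, 2 and 2 higher and 1, 1, 3 and 1 lower when mice 1 to 4 were left out in turn, and 2 higher and 1 lower without the mouse term. The inflammasome list counted 1, 1, 1 and 1 higher and 4, 3, 4 and 4 lower when mice 1 to 4 were left out in turn, and 1 higher and 2 lower without the mouse term. The prostaglandin list counted 2, 2, 2 and 3 higher and 1, 1, 2 and 2 lower when mice 1 to 4 were left out in turn, and 1 higher and 1 lower without the mouse term. Outside the lists, the largest rises took in the carnitine and ergothioneine transporter Slc22a4 (2.93), Mturn (2.76), the lipoprotein receptor Lrp8 (2.52) and Prkar2b, a regulatory subunit of protein kinase A (2.32).

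Some lists moved in opposite directions in the 2 pairs of mice. Cell cycle genes had a median change of 0.68 and 0.53 in mice 1 and 2 and of −0.87 and −0.83 in mice 3 and 4. In the pairs fitted apart, 21 of 31 were higher and 2 lower in mice 1 and 2, against 0 higher and 25 lower in mice 3 and 4, and 18 passed in opposite directions. With all mice together, the D-type cyclins were the 3 members that passed: Ccnd1 fell by 1.90, Ccnd2 by 1.69 and Ccnd3 by 0.93. For Ccnd1 the adjusted p missed the threshold without mouse 2 or 4 (0.0557 to 0.102) and for Ccnd2 without mouse 2 (0.0567). Heat shock genes had medians of −0.86 and −1.15 in mice 1 and 2 and 0.14 and 0.11 in mice 3 and 4, and 0 of 12 passed over 4 mice. Hsph1, an HSP110 chaperone gene, was at 12.6, 20.8, 60.1 and 56.6 CPM with LPS and 4.68, 5.24, 80.0 and 66.7 CPM with SR9009 and LPS (log2 −0.59, adjusted p = 0.372). The LPS level of mice 3 and 4 was already above that of mice 1 and 2. Dnajb1, an HSP40 gene, was lower in 4 of 4 mice without passing (log2 −0.94, adjusted p = 0.0628). Hspa5, the endoplasmic reticulum chaperone BiP, was at 1724, 1787, 1185 and 1372 CPM with LPS and 819.8, 859.5, 1371 and 1302 CPM with SR9009 and LPS (log2 −0.50, adjusted p = 0.194). Herpud1, an induced partner of protein degradation, had −0.90 (adjusted p = 0.0745). The unfolded protein response list had medians of −0.51 and 0.21 in the 2 pairs, with 5 of 18 genes past the threshold in opposite directions. Of the glycolysis and HIF1 list, 1 gene was higher and 15 lower in mice 1 and 2 (median −0.39), against 12 higher and 4 lower in mice 3 and 4 (median 0.17). Of 19 ATF4 targets fitted in both pairs, 5 were higher and 7 lower in mice 1 and 2 (median −0.05), against 14 higher and 1 lower in mice 3 and 4 (median 0.76).

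**Figure D4:**
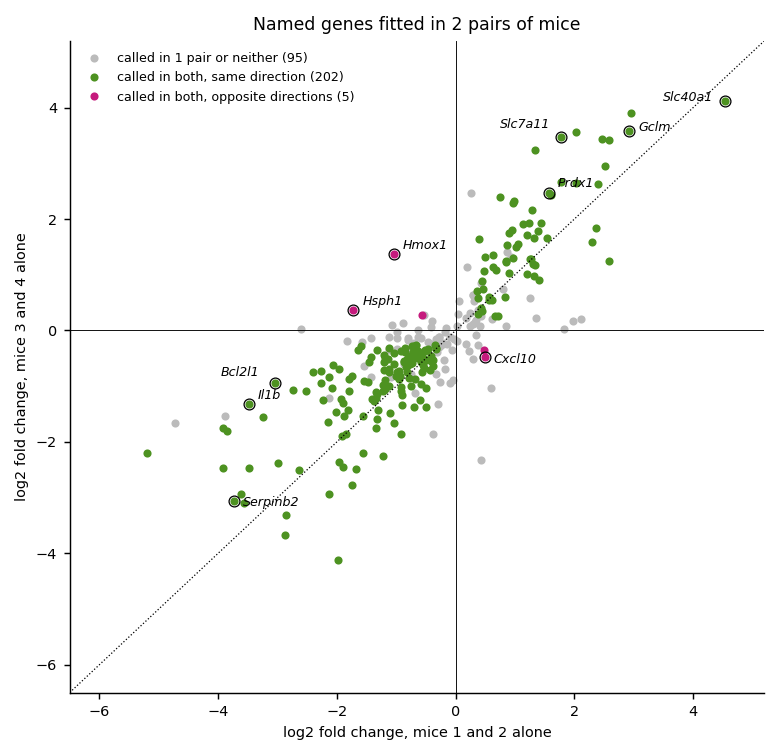
Log2 difference between SR9009 and LPS and LPS alone in mice 1 and 2 (x axis) and in mice 3 and 4 (y axis), fitted separately, for the named genes, 1 point a gene. Green points passed in both pairs in 1 direction, magenta points in opposite directions and grey points in 1 pair or neither; Hmox1 lies at −1.04 and 1.37, off the dotted line of equal change.

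The levels of the leading genes in the other groups, on a common scale of all 16 libraries, place these differences. Serpinb2 was at 0.547 ± 0.699 CPM with DMSO, 169 ± 28.8 with LPS and 16.4 ± 5.71 with SR9009 and LPS (mean ± SD, n = 4), so the treated level stayed above that of unstimulated cells. Gclm was at 104 ± 11.1, 42.8 ± 11.5 and 427 ± 192 CPM in the same order, and Fcgr4 at 35.9 ± 22.5, 576 ± 159 and 154 ± 52.2 CPM. Since the LPS libraries are shared between the comparison with DMSO and that with SR9009, the 2 are given as levels only.

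Whether the SR9009 effect differed with LPS was tested in a model of all 16 libraries with mouse number, as the effect with LPS minus that without. Of 13438 genes 15 passed (0.112%), 11 with a positive and 4 with a negative difference. Of the positive ones 8 are members of the interferon list. Cxcl10 was at 68.1 ± 45.1 CPM with DMSO and 5.35 ± 3.80 with SR9009, but at 5052 ± 2364 with LPS and 5899.9 ± 4355 with both (difference of effects log2 3.72, SE 0.40, adjusted p = 0.00706). Iigp1, an immunity-related GTPase gene, was at 11.4 ± 6.46 and 0.881 ± 0.493 CPM without LPS and at 409.8 ± 236 and 271 ± 165 CPM with it (log2 3.04, SE 0.35, adjusted p = 0.00784). Ifit1bl1 (3.70), Ifit3 (2.95) and Parp14 (1.77) had the same sign. In cells without LPS these 5 were lower with SR9009, with log2 differences of −1.30 to −5.18. The 4 negative ones were genes that fell with SR9009 in cells given LPS: Mmp13 (log2 −3.55, SE 0.59, adjusted p = 0.0459), Gm5150 (−2.73), Il1rn (log2 −2.57, SE 0.43, adjusted p = 0.0459) and Pdpn (−2.06). In cells without LPS, Mmp13 was at 5.92 ± 2.39 CPM with DMSO and 7.93 ± 2.80 with SR9009 and did not pass (log2 0.46), nor did Gm5150 (−0.58) and Il1rn (−0.57). Pdpn was higher with SR9009 there (38.2 ± 12.1 against 14.7 ± 3.60 CPM). Among the libraries given SR9009 without LPS, that of mouse 1 stood apart, with 12616442 counts and 13298 genes detected, against at least 21173379 counts and 18179 genes in the other 3. When it was left out, 163 genes had a positive and 108 a negative difference, and all 15 still passed, with adjusted p up to 0.0197. Without mouse 2, 3 or 4, 0 genes passed in edgeR (653, 773 and 677 at an unadjusted p under 0.05), without the mouse term 1 gene passed, lower, RLE scaling gave 8 positive and 1 negative, and DESeq2 called 112 positive and 88 negative, so the number of genes depends on the mice and the tool.

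**Figure D5:**
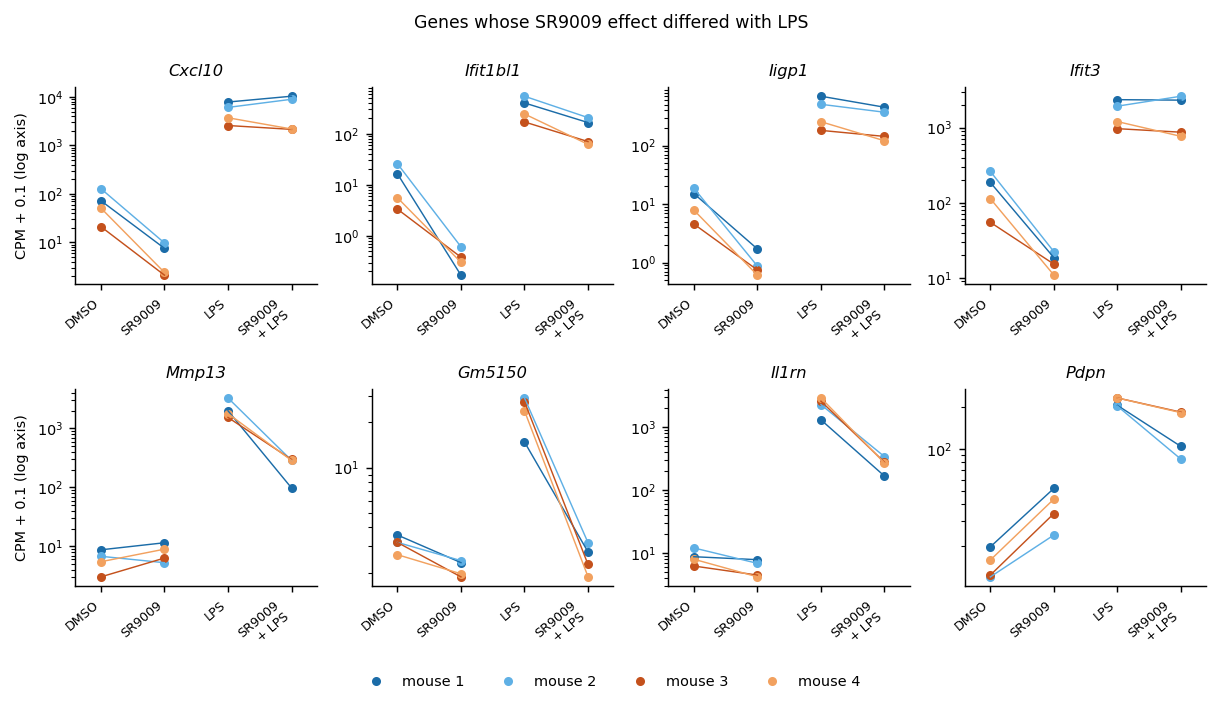
Level (CPM plus 0.1 on the scale of all 16 libraries, log axis) of 8 genes in each library of the 4 groups, with lines joining the libraries of a mouse without and with SR9009. Cxcl10, Iigp1 and the IFIT genes fall along the lines of cells without LPS, and Mmp13, Il1rn, Gm5150 and Pdpn fall along the lines of cells with LPS.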

How the data were processed

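Messenger RNA of 8 libraries (4 mice, 2 groups) was compared, and all 16 libraries of the series entered the interaction test and an alternative fit. Per the labels' protocols, RNA was captured by its poly(A) tail. Per the submitters' processing notes, HISAT2 was the aligner and GRCm39 (mm39) the build; the sources used here do not give how reads were counted, on which strand and with which annotation. The deposited table holds raw counts per gene, per the file headers. The FPKM values, scaled to gene length and library size by the authors, per the file headers, were used only as an alternative unit. No source says that the libraries are more than 1 culture per mouse and condition.

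Of 56748 genes, 12102 passed filterByExpr (minimum count 10, minimum total 15), of which 10867 are protein coding. They were fitted with a robust edgeR quasi-likelihood model with TMM scaling (factors 0.889 to 1.10), group and mouse number, with 3 residual degrees of freedom, and adjusted over all tested genes (threshold 0.05). The same animal gave both libraries of a number, and deviations from the group means correlated across genes with r of 0.507 to 0.621 for libraries of the same mouse and −0.641 to 0.589 for different mice. Different mice of the same pair had r of 0.295 to 0.589, and every value between the pairs was negative. The common biological coefficient of variation of the model came to 0.184. CPM uses the TMM-scaled library size of these 8 libraries, and values set across 4 groups use that of 16. SE values were derived from the log2 difference and the F statistic. No 2 libraries were identical, and all pairs within a group differed beyond counting noise (chi-square per degree of freedom of 10.0 or more). Promoter windows and their coordinates come from RefSeq (GRCm38.p6); 9015 of 12101 tested symbols matched, under 80%, so motif shares over all called genes are void and not given; of the 45 tested NRF2 targets, 40 matched. The fits were tested on simulated counts with known changes. Those counts held no difference in SR9009 effect between pairs of mice, and those for the interaction held no mouse effect. How the fits behave with these features was not tested.

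The members, the 42 gene lists and the tests were chosen with earlier results of these data known. Genes were named by rule: the 12 largest changes per direction (protein coding, called, mean of 5 CPM or more, 1 direction in 4 mice), the 5 most abundant called genes per direction, all plasminogen and clock members, up to 6 members per list with the smallest p, and check genes; the text uses part of these, and some are not reported here. Parp14, Cxcr4, Cebpa, Klf4, Mmp12 and Cyld were named after their values were seen, to complete small counts. The alternatives were no mouse term, all 16 libraries, RLE and upper-quartile scaling, no filter, a filter of 1 CPM in 4 libraries, limma on log2 FPKM plus 1 or 0.1, DESeq2, limma-voom, and each mouse left out; fits of each pair of mice were added after the data were seen. Versions were R 4.3.3, edgeR 4.0.16, limma 3.58.1, DESeq2 1.42.0, matplotlib 3.10.9, scipy 1.17.1, numpy 2.4.6, pandas 2.3.3 and Python 3.11.15.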

Additional observations from a re-analysis of the deposited data

Results flagged for a closer look

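Of 388 groups of 4 libraries checked, 20 held a library whose gap to its nearest neighbour was above the 95% critical value of Dixon's test, close to the 1 in 20 that chance gives. Among the LPS libraries the highest one stood apart for Prdx1 (921 CPM), Gstm1 (74.7 CPM), Lcn2 (745 CPM), Il19 (40.5 CPM), Saa3 (8825 CPM), Il4ra (2516 CPM), Phgdh (8.61 CPM), Gsdmd (296 CPM) and Prkar2b (15.5 CPM). The lowest LPS library stood apart for Bcl3 (187 CPM), Junb (407 CPM), Tlr7 (274 CPM), Cd40 (376 CPM) and Cx3cr1 (161 CPM). With SR9009 and LPS, the highest library stood apart for Mvd (72.9 CPM), Il18bp (37.3 CPM) and Mmp25 (17.9 CPM), and the lowest for F10 (12.8 CPM), Mmp13 (83.8 CPM) and Fscn1 (11.9 CPM).

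For 9 of the genes described, the SR9009 effect with LPS differed from that without LPS by the interaction test (edgeR, 16 libraries, adjusted p under 0.05). The log2 difference of effects was 3.72 for Cxcl10, 3.70 for Ifit1bl1, 3.04 for Iigp1, 2.95 for Ifit3, 1.77 for Parp14, −2.57 for Il1rn, −2.73 for Gm5150, −3.55 for Mmp13 and −2.06 for Pdpn. None of these genes passed without mouse 2, 3 or 4, where 0 genes of the whole table passed.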

How the results depend on the processing

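Of the 165 genes described as risen or fallen, none changed sign in any alternative fit, and neither did any other called gene fitted there. Each alternative reuses libraries that selected these genes, so kept signs and calls are no independent support. The 165 genes were called as follows: 88 without the replicate block (the mouse term), 81 with all 16 libraries, 157 to 164 with RLE or upper-quartile scaling, DESeq2, limma-voom, a 1 CPM filter or log2 FPKM, 136 with no filter, and 117 to 143 with 1 mouse left out. With 2 mice only, 153 (mice 1 and 2) and 160 (mice 3 and 4) passed. The counts of all higher and lower genes were 215 and 271 without the replicate block, 296 and 239 with all 16 libraries, 2475 and 2513 with only mice 1 and 2, 2176 and 2264 with only mice 3 and 4, and, with 1 mouse left out, 462 to 796 and 506 to 974. For the difference of SR9009 effects, the counts were 112 and 88 with DESeq2, 0 and 1 without the replicate block, 8 and 1 with RLE scaling, 163 and 108 without the SR9009 library of mouse 1, and 0 to 89 and 0 to 77 with 1 mouse left out (edgeR; 653, 773 and 677 genes at an unadjusted p under 0.05 without mouse 2, 3 and 4). The cause of these shifts was not tested.

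Genes that did not pass changed sign in some fits. Without the replicate block the log2 difference was 0.24 for Cxcl10, 0.0385 for Ifit3 and 0.0613 for Hsph1. Upper-quartile scaling gave 0.0725 for Cxcl10, 0.0130 for Tlr4 and 0.0109 for the median of the macrophage lineage list, and no filter gave 0.0106 for Cxcl10. Only mice 1 and 2 gave 0.60 for Nr1d1, −1.04 for Hmox1, 0.49 for Cxcl10 and 0.22 for Ifit3. Only mice 3 and 4 gave −0.36 for Nr1d2, 0.28 for Nfe2l2, 0.13 for Tnf, 0.27 for Acod1, 0.0320 for Ptgs2, 0.0456 for Tlr4, 0.36 for Hsph1 and 0.10 for Hspa5. With 1 mouse left out, Plat ran from −0.44 to 0.055, Nr1d1 ran from −0.55 to 0.00301, Nr1d2 ran from −0.12 to 0.24, Hmox1 ran from −0.37 to 0.67, Nfe2l2 ran from −0.29 to 0.11, Cxcl10 ran from −0.17 to 0.25, Acod1 ran from −0.28 to 0.0954, Tlr4 ran from −0.10 to 0.0563, Ifit3 ran from −0.24 to 0.11 and the median of the lipid uptake list ran from −0.14 to 0.0198. With 3 residual degrees of freedom and 4 mice, a gene near the threshold can pass or miss with 1 mouse.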
